A study of Mus musculus with 4 samples.

Results

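The T cell receptor variable genes are the V segments from which the antigen-binding ends of the 4 receptor chains are built. Every feature whose symbol begins with Trav, Trbv, Trdv, Trgv or Tcrg-V was taken, which gave 176 of the 31053 features: 128 Trav (alpha chain), 35 Trbv (beta), 6 Trdv (delta) and 7 gamma V features (6 named Tcrg-V and 1 named Trgv2). The choice rests on symbols alone and used no measured value. UMIs (unique molecular identifiers, each standing for 1 captured RNA molecule) were read in T cells, which are barcodes with at least 500 UMIs, at least 250 genes, at most 10% mitochondrial UMIs and at least 2 UMIs over Cd3d, Cd3e and Cd3g, the genes of the CD3 signalling chains.

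The cells were immune cells sorted by flow cytometry from mammary tumours of FVB/NJ mice at 12 weeks of age and profiled by single-cell RNA sequencing. There were 2 genotypes with 2 samples each. PyMT mice carry the polyoma virus middle T antigen, which drives the mammary tumours, and Jagged1/PyMT mice carry Jagged1, a Notch ligand, as well as PyMT. The labels name neither the promoter of either allele, nor its cell type, nor how many animals a sample pools. Both samples of a genotype share 1 count matrix whose barcodes name no sample, so there is 1 library per genotype. No difference between genotypes has a replicate check and no test was run. All intervals below are 95% intervals that cover counting error alone, and they are exact unless called approximate. UMIs of 1 cell are not independent of each other, so intervals on summed UMIs are narrower than the true uncertainty.

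A developing T cell joins 1 V segment to a J segment (with a D segment between them in beta and delta chains), and the joined exon is spliced to a constant region. Most T cells carry an alpha and a beta chain and see peptides on MHC molecules, CD4 cells on class II and CD8 cells on class I. Gamma-delta T cells carry the other 2 chains, and their V segments mark subsets with different tissue homes and cytokines. A mature T cell usually keeps 1 productive beta chain, while a second rearranged alpha chain is common.

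The 2 libraries held 36012036 (PyMT) and 55506773 (Jagged1/PyMT) UMIs, with 7444 and 7875 barcodes passing the filters. Of these, 5361 and 3982 were T cells, with a median of 4002 and 4454.5 UMIs. Barcodes of T cells that also held at least 3 UMIs of B cell, macrophage, neutrophil or epithelial markers made up 477 (8.90%) and 1571 (39.5%) of T cells. Most carried macrophage markers, 337 (6.29%) in the PyMT and 1451 (36.4%) in the Jagged1/PyMT library. The summed level of 7 macrophage markers in T cells was 992 and 7192 CPM (UMIs per 1000000 UMIs of all genes in the same cells), that of 4 neutrophil markers 232 and 1683, that of 4 B cell markers 122 and 124, and that of 9 T cell markers 3748 and 2497. Such barcodes held more RNA (medians of 6917 and 9170 UMIs) than the other T cells (3892.5 and 3776). The widest genotype shifts of usage, the summed levels and the gamma-delta shares are therefore given with and without them. The libraries had 70 filtered barcodes in common, 30 of them called T cells in both.

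The sequences of the segments that carry the results are shown as the last 60 bases of their GENCODE vM21 transcripts on GRCm38, the part of the V exon that reaches the junction. That reference is of C57BL/6J mice, not FVB/NJ, and the counts hold no sequence of the FVB/NJ alleles. Capitals mark the codon of the conserved cysteine that opens the junction and, in Trbv24, also an in-frame stop codon. Trbv1, Trbv19 and Trbv29 are shown because they were the segments with the largest CD8 shares or CD8 excess, Trbv24 and Trbv31 because they were higher in CD4 cells, and Trbv13-2 and Trbv16 because no UMI of them was found.
Trbv1: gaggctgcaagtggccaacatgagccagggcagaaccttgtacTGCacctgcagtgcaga
Trbv19: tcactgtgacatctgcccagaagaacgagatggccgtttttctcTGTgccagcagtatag
Trbv29: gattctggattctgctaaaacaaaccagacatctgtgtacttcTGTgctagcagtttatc
Trbv24: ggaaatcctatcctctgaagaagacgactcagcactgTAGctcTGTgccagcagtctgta
Trbv31: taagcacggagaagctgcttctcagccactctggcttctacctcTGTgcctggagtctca
Trbv13-2: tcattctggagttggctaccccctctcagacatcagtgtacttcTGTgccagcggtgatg
Trbv16: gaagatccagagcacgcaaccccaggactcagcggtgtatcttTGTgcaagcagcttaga

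All of them lie on chromosome 6. Trbv1 is at chr6:40891229-40891885, Trbv13-2 at chr6:41121396-41121832, Trbv16 at chr6:41151740-41152230, Trbv19 at chr6:41178375-41179048, Trbv24 at chr6:41218091-41218557 and Trbv29 at chr6:41271394-41271881, all on the plus strand. Trbv31 is at chr6:41557691-41558452 on the minus strand. Of these 7, Trbv24 is annotated as a pseudogene: its stop is codon 109 and the cysteine codon 111 of its reading frame. The other 6 have no stop codon in the frame.

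Trbv RNA was found in most T cells and in few of the barcodes with B cell or macrophage markers and no Cd3 UMI. A Trbv UMI was present in 92.3% (interval 91.5 to 93.0) of PyMT T cells and 91.5% (90.6 to 92.4) of Jagged1/PyMT T cells, and a Trav UMI in 75.8% and 76.1%. B cell-marked barcodes without Cd3 UMIs, which should lack these genes, held a Trbv UMI in 0.580% of 1380 and 0.444% of 1352 barcodes, and macrophage-marked ones in 0.957% of 209 and 1.26% of 1907. The B cell-marked barcodes of the PyMT library had a median of 3491.5 UMIs, beside 4002 in its T cells. Those of the Jagged1/PyMT library were shallower than its T cells, with a median of 3230.5 beside 4454.5. Thinned to 1000 UMIs per cell, which left out 36 and 45 shallower cells, the Trbv share was 66.0% and 55.1%, and without barcodes of a second lineage 67.6% and 64.3%. A cell with Trbv RNA held 6.41 and 5.72 Trbv UMIs on average, and a cell with Trav RNA 3.26 and 3.38 Trav UMIs.

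V features held more UMIs than the constant-region genes they are spliced to. In the PyMT library Trbv features summed to 31718 UMIs in T cells and Trbc1 with Trbc2 to 12734, a ratio of 2.49. In the Jagged1/PyMT library the sums were 20843 and 8993, a ratio of 2.32. For the alpha chain, Trav features held 13239 and 10235 UMIs against 4600 and 4483 for Trac, ratios of 2.88 and 2.28. The labels name a kit that reads the 3′ end of transcripts, and V segments form the 5′ end. The files do not settle whether a kit that reads the 5′ end was used in its place, and what these ratios measure depends on it. The J segments between them were almost unread, with 159 and 74 UMIs over 14 beta J features and 146 and 110 over 60 alpha J features. A V segment could therefore be named in most T cells, but not the junction, so usage below is not clonality.

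Of the 176 members, 117 were detected in T cells of both libraries, 97 reached 20 UMIs over both, and 46 had no UMI in T cells of either: 19 Trbv and 27 Trav. All 7 gamma V and all 6 Trdv features had UMIs in at least 1 library. Among the 34 members annotated as pseudogenes 24 were at 0, and among the 142 annotated as functional 22 were.

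The functional Trbv segments without UMIs stood in 1 block. Going along the chromosome, 17 consecutive Trbv features from Trbv6 to Trbv18 had 0 UMIs in every barcode of both libraries, 9 of them functional segments (Trbv12-1, Trbv13-1, Trbv12-2, Trbv13-2, Trbv13-3, Trbv14, Trbv15, Trbv16 and Trbv17) and 8 pseudogenes (Trbv6 to Trbv11, Trbv12-3 and Trbv18). The block spans chr6:41066879-41175608, 108.73 kb of GRCm38. The neighbours on either side were well read: Trbv5 with 2228 and 1536 UMIs in T cells, and Trbv19 with 4384 and 2641. All 13 functional Trbv segments outside the block had UMIs, and the other 2 features at 0, Trbv27 and Trbv28, are pseudogenes. Every stretch of 60 bases in these 17 transcripts is found in no other of the 176 V transcripts. Against 32661 and 21679 Trbv UMIs over all barcodes, the floor of 3 UMIs set for a count of 0 is a share of 0.00919% and 0.0138% for each. FVB mice are known to lack a stretch of germline Trbv genes. RNA counts alone cannot tell a gene that is missing from the genome from one that is not transcribed or whose FVB/NJ reads do not align.

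**Figure D1:**
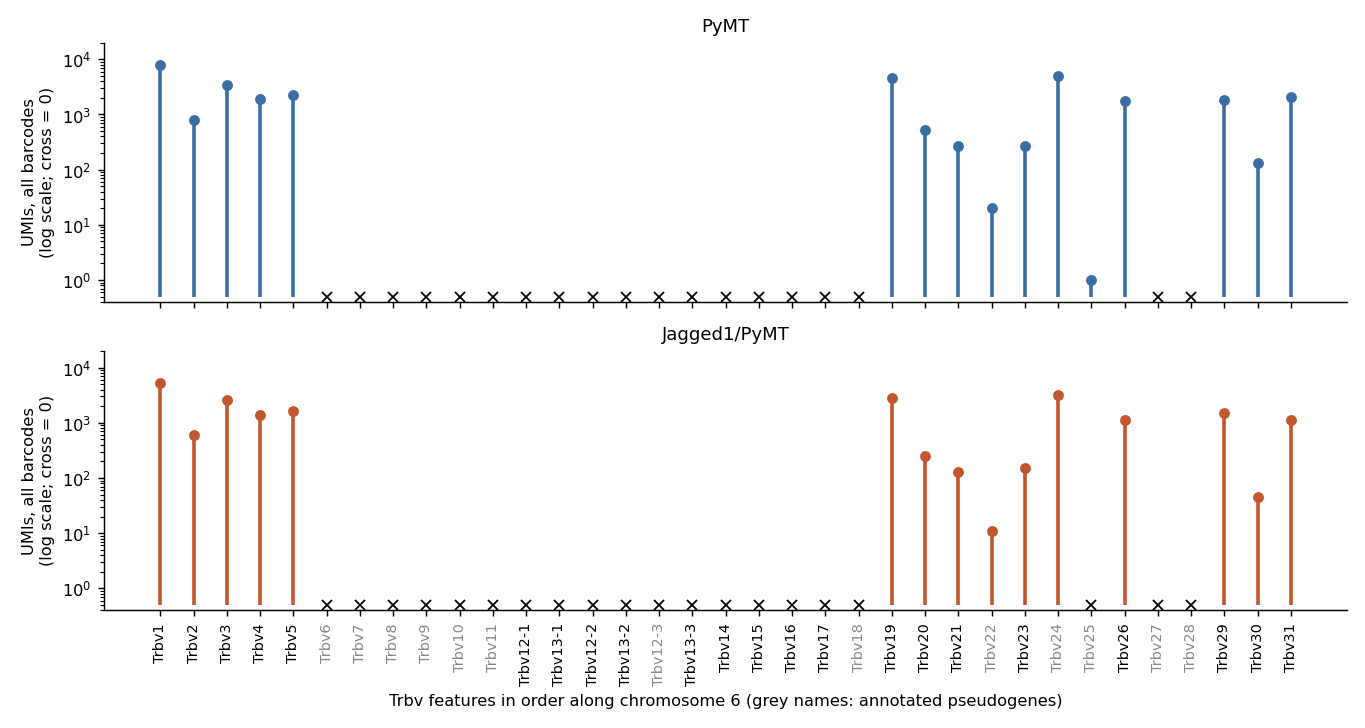
Total UMIs of the 35 Trbv features in order along chromosome 6, in the PyMT and the Jagged1/PyMT library, over all barcodes on a log scale, with crosses for 0 and grey names for annotated pseudogenes. The 17 features from Trbv6 to Trbv18 are all at 0, between well-read Trbv5 and Trbv19, and Trbv24 stands out among the pseudogenes.

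The annotated pseudogene Trbv24 was among the most used beta segments. It had 4885 UMIs in 853 PyMT T cells and 3066 UMIs in 673 Jagged1/PyMT T cells, 195 and 110 CPM. The other pseudogenes with UMIs were far lower: Trbv22 had 19 and 11 UMIs in T cells, and Trbv25 had 1 and 0. Whether the FVB/NJ copy of Trbv24 keeps the stop codon printed above cannot be read from counts.

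Usage was compared between CD4 and CD8 cells by counting cells that held exactly 1 Trbv segment. CD4 cells are T cells with Cd4 and no Cd8a or Cd8b1 UMI (1584 and 1067), CD8 cells the reverse (1454 and 1207), and cells with at least 2 Trdc UMIs and neither Cd4 nor Cd8b1 were set apart as gamma-delta cells. Another 124 and 173 cells held both coreceptors, and 2161 and 1512 held neither and stay out of this comparison. Single-segment cells numbered 1101 and 703 among CD4 cells and 1023 and 794 among CD8 cells. Trbv24 led in CD4 cells of both libraries. In CD8 cells Trbv1 and Trbv19 were close by this count. Trbv1 led with 189 cells to 186 in the PyMT and 132 to 128 in the Jagged1/PyMT library. Without barcodes of a second lineage Trbv19 led in the latter with 81 to 78 of 500. By UMIs Trbv1 took more, 28.0% and 24.7% of the Trbv UMIs of CD8 cells, beside 18.5% and 16.6% of single-segment cells. Positive T cells held 8.55 and 7.40 UMIs of Trbv1 on average, but 1.79 and 1.81 of Trbv2. Ranks between segments may therefore depend on how well each is read.

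Trbv24 was the segment of 200 of 1101 PyMT CD4 cells (18.2%, interval 15.9 to 20.6) and of 45 of 1023 PyMT CD8 cells (4.40%, 3.23 to 5.84). In the Jagged1/PyMT library it was that of 141 of 703 CD4 cells (20.1%, 17.2 to 23.2) and 47 of 794 CD8 cells (5.92%, 4.38 to 7.79). The CD4 share was thus 4.13 and 3.39 times the CD8 share, and the intervals of the 2 classes lay far apart in each library. Without barcodes of a second lineage the CD4 shares were 18.2% and 21.4%.

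Trbv19 and Trbv29 went the other way. Trbv19 was the segment of 8.27% (6.71 to 10.1) of PyMT CD4 cells and 18.2% (15.9 to 20.7) of PyMT CD8 cells, a ratio of 2.20. In the Jagged1/PyMT library the shares were 6.69% (4.95 to 8.79) and 16.1% (13.6 to 18.9), a ratio of 2.41. Trbv29 was the segment of 3.0% (2.07 to 4.18) of PyMT CD4 and 9.09% (7.40 to 11.0) of PyMT CD8 cells, and of 3.27% (2.09 to 4.87) and 10.7% (8.64 to 13.1) in the Jagged1/PyMT library. CD8 shares of Trbv29 were thus 3.03 and 3.27 times the CD4 shares, and for both segments no CD4 interval overlapped the CD8 interval of its library.

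Trbv31, the segment that sits downstream of the constant genes in inverted orientation, was also higher in CD4 cells, at 11.2% (9.37 to 13.2) against 4.69% (3.48 to 6.17) in the PyMT library. In the Jagged1/PyMT library the 2 shares were closer, 6.40% (4.71 to 8.47) and 4.16% (2.88 to 5.79), with overlapping intervals. Trbv2 stood at 8.54% of CD4 and 5.28% of CD8 cells and at 6.97% and 5.29%. Trbv5 stood at 9.17% and 6.65%, and at 9.96% and 7.30%. Trbv4 was higher in CD8 cells, 7.18% against 9.48% and 7.11% against 10.8%.

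Trbv1 and Trbv3, also common, differed little or not alike. Trbv1 was the segment of 13.4% of CD4 and 18.5% of CD8 cells in the PyMT library, and of 15.4% and 16.6% in the Jagged1/PyMT library. Trbv3 took 12.5% and 14.8%, then 16.1% and 15%. Trbv26 was near 5% in all 4 groups, between 4.54% and 5.29%. Trbv20, Trbv21, Trbv23 and Trbv30 each stayed under 2% of every group.

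**Figure D2:**
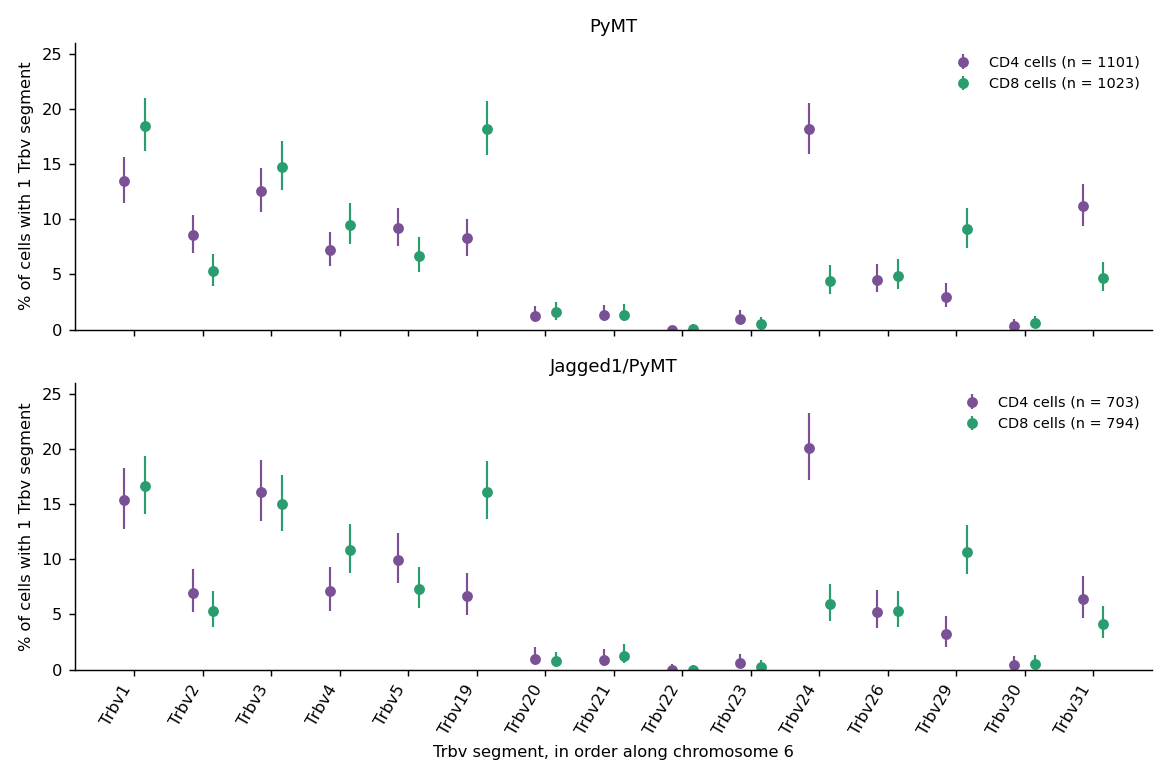
Share of cells with exactly 1 Trbv segment that hold each segment, in percent with exact 95% intervals, for CD4 and CD8 cells of the PyMT library (upper) and the Jagged1/PyMT library (lower). Trbv24 lies highest in CD4 cells (18.2% and 20.1%) and Trbv19 and Trbv29 lie above their CD4 values in CD8 cells of both libraries.

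The levels in CPM gave a similar picture with a fold rule. Among Trbv segments with at least 20 UMIs over CD4 and CD8 cells of each library, 6 of 14 differed by more than 1.5-fold in the same direction in both libraries, against 5.21% of all genes tested alike. Trbv19 and Trbv29 were higher in CD8 cells (2.19% of all genes were) and Trbv2, Trbv23, Trbv24 and Trbv31 lower (3.03% of all genes were), and no segment was past the fold in opposite directions. Trbv24 stood at 270 CPM in CD4 and 69.6 in CD8 cells of the PyMT library, and at 177 and 43.8 in the Jagged1/PyMT library. Trbv19 stood at 139 and 240, and at 81.1 and 124. Without barcodes of a second lineage 5 of the segments remained, against 7.98% of all genes, Trbv19 being at 1.42-fold in the Jagged1/PyMT library.

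The alpha segments were counted by subgroup (Trav16 with its copies, for example), because the Trav array holds near-identical copies that reads cannot always tell apart. Copies of the duplicated stretches carry a d or n in their symbol and held 23.7% and 12.9% of Trav UMIs in PyMT T cells and 24.5% and 13.3% in Jagged1/PyMT T cells. Of the 27 Trav features at 0, 18 had under 10% of their 60-base stretches unique among the 176 V transcripts, as did 27 of the 101 with UMIs in T cells. The Trav16 pair is shown because it led the CD8 excess. The last 90 bases of both transcripts differ at 1 base, in capitals, and the entries of single copies are uncertain for that reason.
Trav16d-dv11: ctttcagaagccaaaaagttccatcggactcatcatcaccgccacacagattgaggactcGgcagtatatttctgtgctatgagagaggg
Trav16n: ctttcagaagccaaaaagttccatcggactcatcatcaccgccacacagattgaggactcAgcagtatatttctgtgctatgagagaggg

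They lie at chr14:53047287-53047821 and chr14:53351028-53351621 on the plus strand of GRCm38. Trav16 was the only alpha subgroup of 26 of 800 PyMT CD4 cells (3.25%, 2.13 to 4.73) and 83 of 715 CD8 cells (11.6%, 9.35 to 14.2). In the Jagged1/PyMT library it was that of 20 of 541 CD4 cells (3.70%, 2.27 to 5.65) and 65 of 588 CD8 cells (11.1%, 8.64 to 13.9). CD8 shares were 3.57 and 2.99 times the CD4 shares. Most of these cells carried Trav16n, which by itself took 11.4% and 9.87% of single-segment CD8 cells and 3.53% and 3.61% of CD4 cells. Trav2 was rarer but went the same way, 1.13% and 3.5% in the PyMT and 0.924% and 3.57% in the Jagged1/PyMT library.

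Trav4 and Trav14 had larger shares of CD4 than of CD8 cells, each with separate intervals in 1 library. Trav4 took 6.13% (4.57 to 8.02) of CD4 and 4.06% (2.73 to 5.77) of CD8 cells in the PyMT library, where the intervals overlap, and 8.13% (5.97 to 10.8) and 2.38% (1.31 to 3.96) in the Jagged1/PyMT library. Trav14 took 9.50% (7.56 to 11.7) and 5.03% (3.55 to 6.90) in the PyMT library, then 9.80% (7.42 to 12.6) and 6.97% (5.05 to 9.34), which overlap. The common subgroups Trav6 (17.6% and 15.9%, then 12.6% and 11.7%) and Trav7 (14.5% and 13.4%, then 15.5% and 16.2%) were close in both classes.

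Single Trav segments were also compared by level with the fold rule. Of 49 with at least 20 UMIs over CD4 and CD8 cells of each library, 21 were past 1.5-fold in the same direction in both, against 5.21% of all genes. Trav16d-dv11, Trav16n and Trav12-1 were higher in CD8 cells (2.19% of all genes were) and 18 lower (3.03% of all genes were). The 18 include Trav6d-3, Trav6d-4, Trav6-7-dv9 and Trav7d-3, of subgroups whose usage was close in both classes. The median log2 ratio of CD8 over CD4 cells was -0.51 and -0.58 for Trav segments, beside -0.08 and -0.05 for all genes tested. Trav RNA was thus lower in CD8 cells as a whole, with medians near the 1.5-fold cut. A lower call therefore need not be a difference in usage. Trav4-2 stood at 13.8 CPM in CD4 and 3.44 in CD8 cells of the PyMT library, and at 22.0 and 1.35 in the Jagged1/PyMT library (log2 ratios of -2.01 and -4.02). Its ratio was the lowest of these Trav segments in the Jagged1/PyMT library, but in the PyMT library Trav14n-3 (-2.77), Trav4-4-dv10 (-2.73), Trav14n-2 (-2.19) and Trav9d-1 (-2.03) were lower. Trav4-4-dv10 stood at -2.40 in the Jagged1/PyMT library, and Trav14d-3-dv8 at -1.65 and -1.49 in the 2 libraries.

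**Figure D3:**
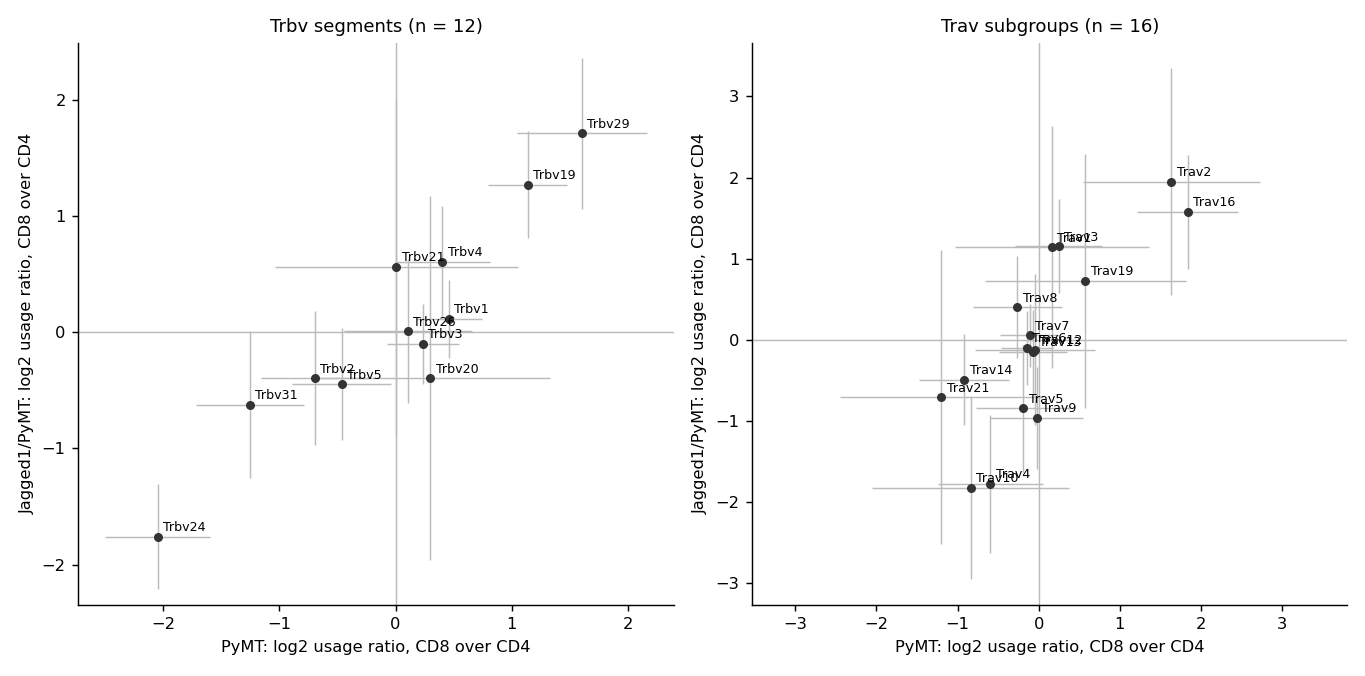
Log2 ratio of usage in CD8 over CD4 cells in the PyMT library (horizontal) and the Jagged1/PyMT library (vertical) for 12 Trbv segments and 16 Trav subgroups with at least 10 cells, and grey bars for approximate 95% intervals of counting error. Points near the diagonal went alike in both libraries, with Trbv29, Trbv19 and Trav16 at the upper right and Trbv24 at the lower left.

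The CD8 over CD4 ratios were alike in the 2 libraries, which differ in genotype but share strain, reference and chemistry. Over the 12 Trbv segments with at least 10 cells over both classes of each library, Pearson's r of the log2 usage ratios was 0.92 and 10 had the same sign. Over 16 Trav subgroups r was 0.81 and 14 had the same sign. The share of Trbv usage that would have to move to turn the CD4 profile into the CD8 profile (the sum of absolute differences divided by 2) was 26.5 percentage points in the PyMT and 22.4 in the Jagged1/PyMT library. Between genotypes it was 9.20 points in CD4 and 5.78 points in CD8 cells, which have no replicate spread to be held against. For Trav subgroups the contrast was smaller. There it was 14.3 points (PyMT) and 22.0 points (Jagged1/PyMT) between classes, beside 10.9 in CD4 and 12.8 in CD8 cells between genotypes.

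Effective numbers of Trbv segments, which count segments weighted by how evenly they are used, were 9.13 and 8.27 in CD4 and 8.36 and 8.73 in CD8 cells, of the 14 or 15 seen. Cells with 1 alpha subgroup and 1 beta segment were spread over many combinations. In CD4 cells 579 and 386 such cells held 148 and 126 combinations, and in CD8 cells 521 and 409 held 144 and 131. The most frequent, Trav6 with Trbv19 in 19 PyMT CD8 cells, made up 3.65% of them, with 15.4 cells expected from the 2 shares.

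By genotype, Trbv usage differed by a few percentage points. In CD4 cells the widest shifts were Trbv31, 11.2% in PyMT and 6.40% in Jagged1/PyMT (-4.77 points), and Trbv3, 12.5% and 16.1% (3.54 points). In CD8 cells they were Trbv19, 18.2% and 16.1% (-2.06 points), and Trbv29, 9.09% and 10.7% (1.61 points). In all T cells the usage of Trbv1 was 15.2% and 15.1%, that of Trbv19 10.7% and 10.6%, and that of Trbv24 14.1% and 14.5%. Trbv1 led the PyMT T cells with 15.2% and Trbv24 the Jagged1/PyMT T cells with 14.9% once barcodes of a second lineage were left out. For alpha subgroups, Trav6 stood at 17.6% and 12.6% of CD4 cells (-5.06 points) and Trav3 at 7.41% and 12.8% of CD8 cells. Without barcodes of a second lineage the pairs of values were 10.7% and 6.85% for Trbv31 and 12.7% and 14.7% for Trbv3 in CD4 cells, and 18% and 16.2% for Trbv19 and 8.99% and 10.6% for Trbv29 in CD8 cells. For Trav6 in CD4 cells they were then 17% and 12.6%, and for Trav3 in CD8 cells 7.23% and 12.8%. Trav3-3 made up most of the Trav3 cells, 6.41% and 10.8% of single-segment CD8 cells.

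The level of V RNA in CPM differed more than usage in all T cells, and less once the barcodes of a second lineage were left out. Trbv features summed to 1269 CPM in PyMT and 751 in Jagged1/PyMT T cells, a log2 ratio of -0.76 (-0.78 to -0.73). Of 15 Trbv segments with at least 20 UMIs, 13 were lower by more than 1.5-fold, against 11.2% of all genes lower and 36.4% past the fold in either direction. The median log2 ratio was -0.82 for the Trbv segments and 0.08 for all genes. Trav features summed to 530 and 369 CPM (log2 ratio -0.52), with 37 of 72 segments lower. Trbv30 (log2 ratio -1.80), Trbv21 (-1.26), Trbv20 (-1.23), Trbv31 (-1.06) and Trbv19 (-0.88) were the clearest Trbv segments.

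Without those barcodes the sums were 1374 and 1253 CPM for Trbv (log2 ratio -0.13) and 577 and 622 for Trav (0.11). Past 1.5-fold were then 2 of 15 Trbv segments, Trbv20 (-0.71) and Trbv30 (-0.96), both lower, against 7.60% of all genes lower and 16.0% in either direction. Of 66 Trav segments 12 were past the fold, 8 higher and 4 lower, against 8.43% of all genes higher and 7.60% lower, so the Trav share was near that of all genes. The log2 ratios were 0.98 for Trav12-1, 0.86 for Trav21-dv12, 0.61 for Trav8n-2, -0.72 for Trav6-7-dv9 and -0.98 for Trav13-4-dv7. Constant and signalling genes of the receptor had moved with the V genes in all T cells: log2 ratios were -0.62 for Trbc1, -0.66 for Trbc2, -0.64 for Cd3d, -0.72 for Cd3e and -0.67 for Cd247, with -0.19 for Trac. Leaving out barcodes of a second lineage gave -0.30, -0.13, -0.06, -0.11 and -0.09, with 0.23 for Trac. The recombinase genes Rag1 and Rag2, needed only while V segments are being joined, had 0 UMIs in T cells of both libraries.

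**Figure D4:**
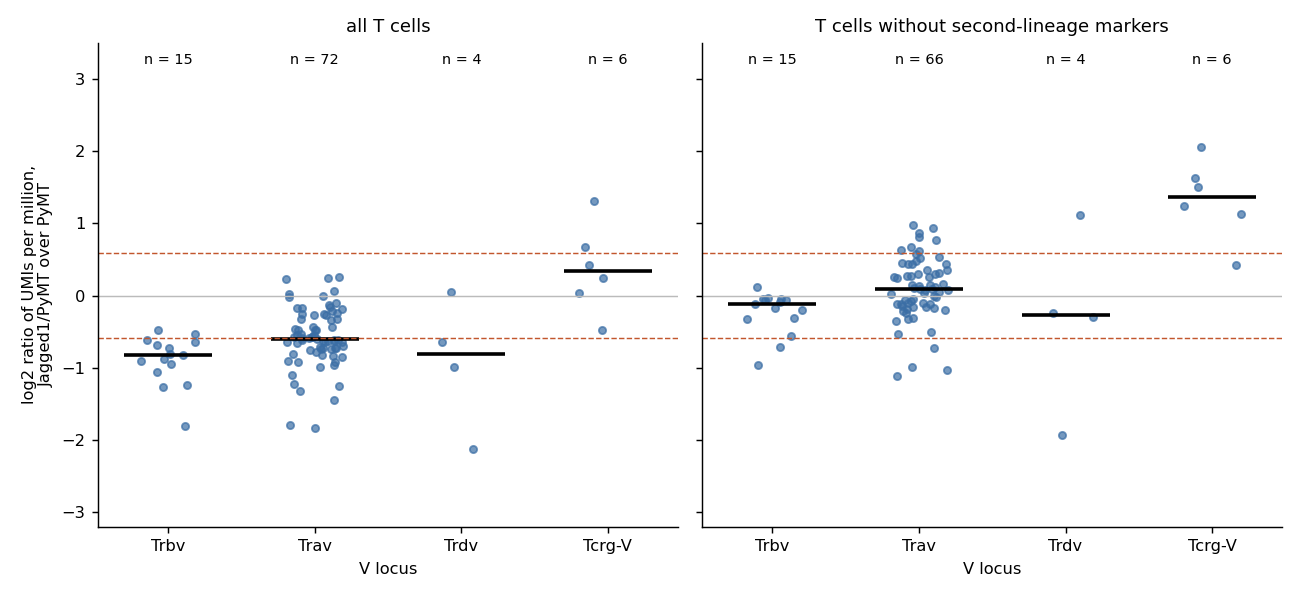
Log2 ratio of CPM, Jagged1/PyMT over PyMT, for each V segment with at least 20 UMIs, by locus, in all T cells and in T cells without a second lineage. In all T cells Trbv points centre on -0.82, while without barcodes of a second lineage they lie near 0 and gamma V points lie above it.

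In summed level, gamma V features were the exception. In all T cells they summed to 23.6 and 29.1 CPM (log2 ratio 0.31), with Tcrg-V1 and Tcrg-V3 past 1.5-fold among 6 tested, both higher in Jagged1/PyMT, against 25.2% of all genes in that direction. Without barcodes of a second lineage they summed to 25.7 and 59.4 (log2 ratio 1.21), and 5 of 6 were higher, against 8.43% of all genes in that direction. These 5 were Tcrg-V1 (log2 ratio 1.496), Tcrg-V3 (2.05), Tcrg-V6 (1.24), Tcrg-V7 (1.62) and Trgv2 (1.12), while Tcrg-V4 stood at 0.43. Counts behind them are small: 110 and 81 UMIs of Tcrg-V1, 32 and 16 of Tcrg-V3, and 41 and 36 of Tcrg-V6, Jagged1/PyMT first. They came from few cells. A gamma V UMI was found in 111 of 4884 PyMT cells (2.27%, 1.87 to 2.73) and 91 of 2411 Jagged1/PyMT cells (3.77%, 3.05 to 4.61). Positive cells held 4.83 and 6.56 gamma V UMIs on average, PyMT first. Trdv4 had a log2 ratio of 1.11 in T cells without a second lineage and Trdv5 of -1.93.

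Part of that gamma V RNA was in CD8 cells. A gamma V UMI was found in 30 of 1454 PyMT CD8 cells (2.06%, 1.40 to 2.93) and 52 of 1207 Jagged1/PyMT CD8 cells (4.31%, 3.23 to 5.61), against 0.442% and 0.750% of CD4 cells, whose median depth was 3980 and 4239 UMIs beside 4774 and 5636 in CD8 cells. In 24 of the 30 and 48 of the 52 a Trgv2 UMI was present, in 12 and 23 of them with no other gamma V segment, and 25 and 49 of them also held Trbv UMIs. Thinned to 1000 UMIs, the CD8 shares were 0.689% and 1.25%. Without barcodes of a second lineage the shares were 1.67% and 5.17%.

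These cells were nearly all among CD8 cells with effector genes, taken as at least 2 UMIs over Ccl5, Nkg7, Gzmk, Gzmb, Pdcd1 and Cxcr6, genes of cytotoxic or recently activated cells. There 27 of 661 (4.08%, 2.71 to 5.89) and 51 of 741 (6.88%, 5.17 to 8.95) held a gamma V UMI, and among the other CD8 cells 3 of 793 (0.378%) and 1 of 466 (0.215%). Effector-marked cells were deeper, with medians of 5622 and 6264 UMIs against 4259 and 4457. Of all CD8 cells they were 45.5% in the PyMT and 61.4% in the Jagged1/PyMT library. Thinned to 1000 UMIs, 1.51% and 2.02% of effector-marked cells held a gamma V UMI, beside 0 of 790 and 0 of 460 other CD8 cells, which allows a share of up to 0.466% and 0.799% (exact upper bounds).

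Gamma-delta cells were few, 38 of 5361 T cells in PyMT (0.709%, 0.502 to 0.972) and 23 of 3982 in Jagged1/PyMT (0.578%, 0.366 to 0.865). The order turned without barcodes of a second lineage, with 36 of 4884 (0.737%, 0.517 to 1.02) and 19 of 2411 (0.788%, 0.475 to 1.23), and in neither case did the intervals separate. A gamma V UMI was present in 33 of the 38 and 20 of the 23. Trgv2 was found most often, in 25 of 33 (75.8%, 57.7 to 88.9) and 15 of 20 cells (75.0%, 50.9 to 91.3). Tcrg-V1 followed with 18 (54.5%) and 10 (50%), and Tcrg-V4 with 14 (42.4%) and 5 (25.0%). Tcrg-V3 was found in 4 and 1 cells, and Tcrg-V7, known from intestinal epithelium, in 2 and 1. Shares add to more than 100% because 63.6% and 65.0% of these cells held more than 1 gamma V segment.

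Tcrg-V6, whose pairing with Trdv4 marks interleukin-17-producing cells of several tissues, was found in 3 of 33 PyMT cells (9.09%, 1.92 to 24.3) and 5 of 20 Jagged1/PyMT cells (25.0%, 8.66 to 49.1). These intervals overlap widely, as they do without barcodes of a second lineage (9.68% of 31 and 29.4% of 17). Trdv4 UMIs were present in 3 of the 3 and 4 of the 5. A UMI of Il17a, Il17f, Il23r, Sox13 or Cd163l1, genes of that type 17 programme, was also present in 3 of the 3 and 4 of the 5, and in 3 and 4 gamma-delta cells in all. Cd163l1, a scavenger receptor of such cells, had 28 UMIs in 3 PyMT and 23 UMIs in 4 Jagged1/PyMT cells, and Il17a had 1 UMI in 1 cell and 27 UMIs in 2 cells. These type 17 genes were picked from a longer list after the values were seen, and not every gene of it was raised. Il17f had 0 UMIs in gamma-delta cells of both libraries. Il7r was present in 44.7% and 43.5% of gamma-delta cells, against 69.4% and 60.1% of other T cells. Cxcr6 was raised, at 31.6% and 43.5% against 3.29% and 5.10%. Tcrg-V5, known from the epidermis, was in 0 and 2 cells, and both of the latter are among the 5 cells with Tcrg-V6 above.

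Most gamma-delta cells carried UMIs of cytotoxic genes. A UMI of Nkg7, Ccl5, Xcl1, Ifng or Klrd1 was present in 33 of 38 and 18 of 23 cells. Nkg7, a granule protein of cytotoxic cells, was present in 84.2% and 78.3% of them, against 20.9% and 29.1% of other T cells, and Xcl1, a chemokine of such cells, in 42.1% and 43.5%, against 1.92% and 4.04%. These 5 genes were picked from a list of 13 after the values were seen, and not every gene of it was raised in both libraries. Ifng, the interferon of such cells, was present in 1 and 0 gamma-delta cells and Gzma, a granzyme, in 1 and 1, and Ly6c2 in 4 and 1 (4.35%) of them, against 8.77% and 13.8% of other T cells. The Trav15 segments that can also join to delta (dv6 in their symbols) were found in 9 and 7 gamma-delta cells, and all 9 and all 7 held one of these cytotoxic genes and 0 held a type 17 gene.

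**Figure D5:**
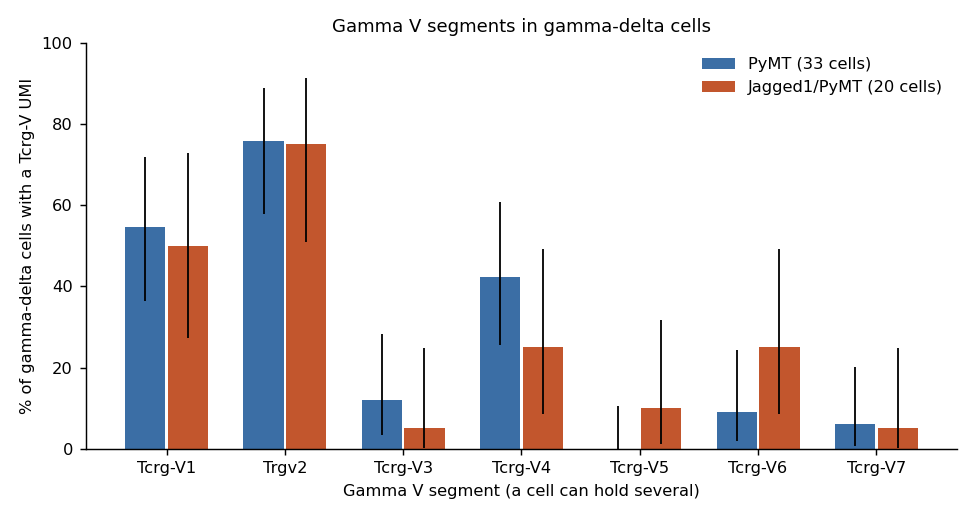
Share of gamma-delta cells with a gamma V UMI that held each gamma V segment, in percent with exact 95% intervals, in 33 PyMT and 20 Jagged1/PyMT cells. Trgv2 is highest in both, at 75.8% and 75.0%, and the intervals of the 2 libraries overlap for every segment.

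A delta V UMI was present in 15 of 38 (39.5%, 24.0 to 56.6) and 9 of 23 (39.1%, 19.7 to 61.5) gamma-delta cells, against 4.78% and 4.29% of all T cells. Trdv4 was found in 7 and 5 of these cells, Trdv5 in 6 and 2, Trdv1 in 2 and 2, and Trdv2-2 in 1 and 1. Most Trdv UMIs of T cells nevertheless lay outside the few gamma-delta cells: Trdv2-2 was present in 49 and 26 CD4 cells and in 36 and 25 CD8 cells, and Trdv1 in 23 and 13 CD4 cells. Of Trdv2-2, 51.8% of 60-base stretches are unique among the 176 V transcripts, so its counts may be shared with near copies.

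An alpha segment, Trav13-2, was common in PyMT gamma-delta cells. It was found in 13 of 38 (34.2%, 19.6 to 51.4), with 95 UMIs and a median of 8 per positive cell, and in 2 of 23 Jagged1/PyMT gamma-delta cells (8.70%, 1.07 to 28.0), with 13 UMIs. These were 12 of 36 and 2 of 19 without barcodes of a second lineage. In CD4 cells its shares were 2.34% and 3.28%, and in CD8 cells 2.75% and 3.07%, with medians of 1 or 2 UMIs per positive cell. Of the 13, 11 also held gamma V UMIs, 13 held Nkg7 and 4 held Trbv UMIs. Trbv UMIs were present in 34.2% and 21.7% of all gamma-delta cells, well below the share in other T cells but above that in B cell-marked barcodes.

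Alpha segments of invariant receptors were looked up by name. Trav11, the alpha segment of invariant natural killer T cells, was found in 1 cell of each library at 1 UMI, and its copies Trav11d and Trav11n in none of the 5361 and 3982 T cells. Because reads cannot always tell Trav copies apart, these counts may miss cells. Trav1, used by mucosal-associated invariant T cells but also by others, was found in 103 and 79 cells. Of these, 1 and 2 held Zbtb16, the transcription factor of innate-like T cells, and none held Traj33, the J segment of that receptor, which is barely read in these libraries.

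Many cells held more than 1 V segment of a locus. Of cells with Trbv RNA, 25.8% and 29.4% held at least 2 Trbv segments, and 25.0% and 23.4% without barcodes of a second lineage, against 35.0% and 38.6% among barcodes with one. The second segment had 1 UMI in 46.6% and 49.0% of these cells. In cells with both Cd4 and Cd8 UMIs the share was 57.7% and 69.1%, and 27.4% and 76.9% of those cells were barcodes of a second lineage. No doublet caller was run, so a second segment may belong to a second cell in the droplet, a second rearrangement or free RNA; their parts were not tested.

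For Trav, 41.6% and 44.4% of positive cells held at least 2 segments, and 33.6% and 36.7% at least 2 subgroups. Of 64 Trbv pairs with at least 5 cells expected in each library, 62 were found together less often than the product of their shares in both libraries, the highest ratio being 1.27. Of 415 Trav pairs with at least 2 cells expected in each library, 29 were of 1 subgroup, and of these 9 were found together more often than the product in both libraries and 15 less often. Of the other 386 pairs, 33 were found more often and 253 less often in both. The following pairs had fewer than 2 cells expected and were chosen because many cells held both. Trav4d-2 and Trav4-2 were found together in 33 and 31 cells, where 1.0 and 1.08 were expected, and Trav16d-dv11 with Trav16n in 21 and 25, where 1.58 and 1.61 were expected.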

How the data were processed

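The authors deposited 1 matrix of raw UMI counts per genotype, over 31053 features and 737280 barcodes, made with Cell Ranger 3.0.2 per the submitters' processing notes. No source used here gives the genome build, annotation or aligner. Per the labels' protocols, a 3′ kit was used with 8000 sorted immune cells. Counts were read as deposited with numpy 2.4.6, scipy 1.17.1 and pandas 2.3.3 under python 3.11.15. There were 0 columns of other samples. Filters on barcodes, the class rules and the floor of 3 UMIs for a count of 0 are given with the results. A second lineage was called at 3 UMIs over Cd79a, Cd79b and Ms4a1, over C1qa, C1qb, C1qc, Lyz2 and Csf1r, over S100a8 and S100a9, or over Epcam, Krt8 and Krt18, and no doublet caller was run. A gene of the B cell list and one of the type 17 list are not reported here, and were left out of those lists.

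Levels are UMIs summed over cells per 1000000 UMIs of all genes in those cells (CPM), and intervals of their ratios are exact conditional binomial. Shares have Clopper-Pearson intervals. Segments with under 20 UMIs over both groups of a ratio were not compared. The 1.5-fold rule and the intervals of ratios were tested on simulated data with independent counts. Those data lack the clustering of V UMIs within cells, so the test does not cover it. Identities, positions and sequences are from GENCODE vM21 on GRCm38, which matched all 176 members by gene identifier, read with biopython 1.88, and figures were drawn with matplotlib 3.10.9.

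Segments were named at 5% usage in a class, among the 5 with the widest genotype or CD8 over CD4 differences by the interval bound nearest 0, or for invariant receptors and the absent block. Members and lists were chosen with earlier results of these data known. The Trav subgroups, the short cytotoxic and type 17 lists, the effector list, Trav13-2, the segment pairs and the sequences shown were chosen after the values were seen. Alternatives were a second lineage left out, thinning, other depth, mitochondrial, Cd3 and UMI minima, other usage counts and other gamma-delta rules.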

Additional observations from a re-analysis of the deposited data

Results flagged for a closer look

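Barcodes outside the T cell definition held V segment RNA. Of barcodes that passed the other filters with exactly 1 Cd3 UMI, 41 of 112 in the PyMT library (36.6%, interval 27.7 to 46.2) and 58 of 159 in the Jagged1/PyMT library (36.5%, 29.0 to 44.5) held a Trbv UMI. In B cell-marked barcodes the shares were 0.580% and 0.444%. These barcodes enter none of the comparisons above.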

How the results depend on the processing

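No paired analysis was possible because both samples of a genotype share 1 matrix whose barcodes carry no sample or replicate name, and for the same reason no replicate could be left out in turn. Of 92 planned recomputed values, 61 stayed within their interval or within 1.5 times of a count, 30 moved and 1 changed sign; of 14 added after the data were seen, 8 stayed and 6 moved. Thinning each cell to 1000 UMIs gave Trbv shares of T cells of 66.0% and 55.1% (PyMT first throughout), log2 genotype ratios of -0.40 for summed Trbv and -0.10 for summed Trav, 4 Trbv and 8 Trav segments past 1.5-fold, Trbv1 shares of CD8 cells of 24.0% and 22.4%, gamma-delta shares of 0.150% and 0.0508%, and a Tcrg-V6 share of 0 of 3 and 0 of 1 cells (0% in each). Thinning and leaving out a second lineage together, added later, gave 67.6% and 64.3% for Trbv and 24.6% and 20.9% for Trbv1. Leaving out a second lineage alone gave -0.13 for Trbv and 0.11 for Trav, the value that changed sign, with 2 Trbv and 12 Trav segments past the fold. At least 4 Cd3 UMIs gave -0.72 and -0.47, and 92.6% for the Jagged1/PyMT Trbv share. Leaving out barcodes above the 95th percentile of UMIs gave -0.68 and -0.43, and the mean of per-cell shares -0.37 and -0.088. With segments of 1 UMI or more compared, 57 Trav segments were past the fold. Trbv1 took 28.0% and 24.7% of Trbv UMIs in CD8 cells, and was present in 21.1% and 20.5% of CD8 cells with any Trbv UMI. With 1 Trdc UMI the gamma-delta shares were 1.42% and 1.43%, and with a Tcrg-C UMI also required 0.448% in PyMT. The cause of each shift was not tested, beyond the fewer UMIs that thinning leaves. Classes were called again on the thinned counts here, whereas the thinned gamma V shares of CD8 cells further above kept the first classes. Depth limits the gamma-delta results: 38 and 23 cells were found. Called again after thinning they were 8 and 2, of which 3 and 1 held a gamma V UMI. With the first classes kept, 52.6% of the 38 and 56.5% of the 23 held one after thinning.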

Other observations

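Regulatory T cells, taken as CD4 cells with a Foxp3 UMI, were too few to describe usage. Trbv24 was the segment of 3 of 35 single-segment cells with Foxp3 in the PyMT library (8.57%, interval 1.80 to 23.1) and of 10 of 21 in the Jagged1/PyMT library (47.6%, 25.7 to 70.2), beside 18.5% and 19.2% of CD4 cells without Foxp3. The 2 libraries lie on opposite sides of their own Foxp3-negative values, and whether cells of 1 clone are among the 10 cannot be read from V segments.

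Within CD8 cells, Trbv1 and Trbv19 shares differed by up to about 5 points between cells with and without effector genes, with overlapping intervals. Trbv1 was the segment of 21.3% (17.7 to 25.3) and 16.1% (13.1 to 19.4) of them in the PyMT library, effector-marked cells first, and of 16.6% in both in the Jagged1/PyMT library. Trbv19 took 18.8% and 17.7%, then 18.1% (14.7 to 21.8) and 13.1% (9.57 to 17.3). T cell barcodes with a Jag1 UMI numbered 19 in the PyMT and 424 in the Jagged1/PyMT library, and 92.2% of the latter held a Trbv UMI.

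Free RNA, read in barcodes under 100 UMIs, held 416 Trbv CPM (UMIs per 1000000 UMIs) in the PyMT and 218 in the Jagged1/PyMT library, and 3.54 and 9.73 gamma V CPM.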
